A study of Mus musculus with 18 samples.

Results

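Eicosanoids are lipid signals made from arachidonic acid, which cytosolic phospholipase A2 frees from membranes. Cyclooxygenases turn it into prostaglandin H2, from which prostaglandin E synthase makes prostaglandin E2, a mediator of fever and pain that also restrains activated macrophages. 5-Lipoxygenase, working with its membrane partner FLAP, instead makes leukotriene A4, the precursor of the neutrophil attractant leukotriene B4 and of the cysteinyl leukotrienes. The 10 genes described here, chosen by symbol from a table of 43280 gene symbols, cover the release of arachidonate (Pla2g4a), the cyclooxygenases (Ptgs1, Ptgs2), prostaglandin E synthase (Ptges), the leukotriene branch (Alox5, Alox5ap, Ltc4s, Lta4h) and the prostaglandin E2 receptors EP2 and EP4 (Ptger2, Ptger4). All 10 were found in the table and all 10 passed the filter on low counts. They were chosen with earlier results of these data known, so counts of them called are a description beside the shares of all genes.

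Messenger RNA was measured in macrophages grown from bone marrow. The mice were wild-type C57BL/6J, and the libraries form 6 groups of 3. PBS_LPS, 1xLPS_LPS and 4xLPS_LPS were stimulated in vitro with lipopolysaccharide (LPS), a bacterial cell wall product sensed by Toll-like receptor 4, and PBS_NO, 1xLPS_NO and 4xLPS_NO were not. The first word of a name is what the mouse had been given in vivo: PBS, or LPS as 1xLPS or 4xLPS. The sources used here do not give doses, times, the age of the mice or whether libraries of 1 group are from separate animals, so p-values measure the spread between libraries and that spread may be technical. Groups follow the arm in the titles, which is also the arm in the names of the count columns. The treatment tag of 12 of the 18 libraries names PBS where the title has 4xLPS, or 4xLPS where it has PBS. Joined instead by the sample number that columns and labels both carry, the tag names the column's arm in 18 of 18.

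Total counts ran between 9296453 (1xLPS_NO library 3) and 54050622 (PBS_LPS library 3), and 3 counts, the upper limit that a count of 0 allows, stood for 0.0555 to 0.323 CPM (counting error only). Levels are given in CPM, TMM-scaled counts relative to the library total. In vitro LPS separated the libraries on the first principal component (56.4% of the variance), and 1xLPS_NO library 1 and 1xLPS_LPS library 3 stood apart on the second (14.2%, scores -52.9 and -42.2). The 7 macrophage markers summed to 13400 to 20100 CPM over the LPS groups and 11800 to 21300 CPM over the NO groups. Mast cell and basophil markers come from cells known for leukotriene synthesis. They summed to 2.42 to 7.2 CPM in the LPS groups and 3.8 to 7.07 CPM in the NO groups. Among them the protease Cpa3 was at 0 in 11 libraries, while Kit (0.696 to 3.12 CPM) and Mcpt8 (0.222 to 3.85 CPM) were found in all. Among other cells that make or use eicosanoids, neutrophil markers summed to 60.3 to 172 CPM over all libraries. Ly6g was at 0 in 15 libraries, while S100a9 (18.3 to 83.2 CPM) and Ngp (13.7 to 45 CPM) were found in all. Platelet markers summed to 56.2 to 148 CPM, most of it Pf4, and eosinophil markers to 2.98 to 8.45 CPM. Most of the stromal marker sum came from the collagen genes Col1a1 (404 to 1940 CPM) and Col1a2 (513 to 1850 CPM). Other stromal markers were lower, such as Col3a1 at 85.7 to 384, Pdgfra at 9.07 to 33.8 and Lum at 0.171 to 1.08 CPM. A gene was called where the adjusted p of edgeR's quasi-likelihood test was under 0.05.

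Ptgs2, Ptges and Pla2g4a rose with LPS in every arm, and Ptgs1 fell in every arm. Promoter windows of these 4 genes are shown because they carry the LPS response described below. Each is RefSeq's window of 300 bases on GRCm38.p6, 250 before and 50 after the annotated start, read 5′ to 3′ on the gene's strand, with capitals for matches to the motifs searched.
Ptgs2, chr1:150099781-150100080, plus strand: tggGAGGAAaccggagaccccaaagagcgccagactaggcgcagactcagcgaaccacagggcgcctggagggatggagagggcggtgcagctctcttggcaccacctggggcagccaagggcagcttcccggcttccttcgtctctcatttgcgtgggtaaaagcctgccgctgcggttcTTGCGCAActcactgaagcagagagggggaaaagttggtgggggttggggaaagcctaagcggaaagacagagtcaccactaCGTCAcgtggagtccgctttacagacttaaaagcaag
Ptges, chr2:30903248-30903547, minus strand: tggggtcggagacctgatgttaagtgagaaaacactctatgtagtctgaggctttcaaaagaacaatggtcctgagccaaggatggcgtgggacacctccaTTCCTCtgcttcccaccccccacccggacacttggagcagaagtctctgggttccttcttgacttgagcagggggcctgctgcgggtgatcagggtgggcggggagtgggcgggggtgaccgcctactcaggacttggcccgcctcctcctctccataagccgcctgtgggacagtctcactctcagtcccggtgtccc
Pla2g4a, chr1:149961241-149961540, minus strand: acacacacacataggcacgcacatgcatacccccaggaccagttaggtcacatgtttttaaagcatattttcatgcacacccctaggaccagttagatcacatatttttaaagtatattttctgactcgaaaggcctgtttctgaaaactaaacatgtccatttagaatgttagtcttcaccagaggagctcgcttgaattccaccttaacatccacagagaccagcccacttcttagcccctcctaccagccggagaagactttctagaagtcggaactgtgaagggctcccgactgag
Ptgs1, chr2:36230176-36230475, plus strand: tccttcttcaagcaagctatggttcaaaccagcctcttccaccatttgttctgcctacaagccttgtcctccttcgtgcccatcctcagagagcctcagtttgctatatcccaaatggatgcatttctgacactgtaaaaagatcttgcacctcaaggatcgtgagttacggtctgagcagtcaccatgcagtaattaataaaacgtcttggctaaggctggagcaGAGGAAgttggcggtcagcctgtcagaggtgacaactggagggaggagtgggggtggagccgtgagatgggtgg

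Motifs were searched on both strands in 10 windows of the 9 members that the RefSeq table holds. The C/EBP motif TTNNGCAA, bound by factors active in stimulated macrophages, begins 69 bases before the start site of Ptgs2, where both strands match the same bases. It is in 10.8% of the 32817 windows of that table. The Ptgs2 window also holds TGACG, the core of the cyclic AMP response element, at base 14 after the start on the minus strand (20.8% of windows). The PU.1 core GAGGAA, named for a factor that defines macrophages, lies 247 bases before the start in Ptgs2, 149 bases before it in Ptges on the minus strand, and 24 bases before it in Ptgs1. It is common, in 28.3% of windows, and 6 of the members have it. The Pla2g4a window printed holds none of the motifs. The NF-kappaB consensus (8.46% of windows), the full element TGACGTCA (1.79%) and the interferon element GAAANNGAA (8.55%) matched none of the 10 windows, which says only that those letters are not in these bases. TATAAA (13.6%) matched a second window of Pla2g4a. The Ptges window is placed around a RefSeq start that lies 26566 bases from the outermost start in the GENCODE annotation.

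The first comparison asked how each gene responded to LPS in vitro in cells of each arm. In the PBS arm 5 of the 10 genes were called, 3 higher and 2 lower, where 25.3% of the 14158 genes tested were called (14.0% higher, 11.3% lower). In the 1xLPS arm 5 were called, 3 higher and 2 lower, beside 22.8% of all genes (12.0% higher, 10.8% lower). In the 4xLPS arm 6 were called, 3 higher and 3 lower, beside 18.9% of all genes (10.6% higher, 8.29% lower). These shares move with the fit: with only the compared groups fitted, 8.6% of genes were called in the 1xLPS arm and 36% in the 4xLPS arm, and without both libraries that stand apart 28.8% in the 4xLPS arm. The split over all genes depends on the scaling: 1982 of 3579 calls were higher in the PBS arm and 1705 of 3228 in the 1xLPS arm. These were 1239 of 3962 and 1156 of 3354 with library totals only, and 1492 of 3859 and 1397 of 3310 with upper quartile factors. They were 1223 of 4001 and 1218 of 3415 with limma, which also scaled by library totals without TMM. The median log2 fold change of the 10 was -0.42, -0.38 and -0.26 in the PBS, 1xLPS and 4xLPS arms, beside -0.02, -8e-04 and 0.05 over all genes tested. In bulk RNA, fewer cells of a type and less RNA per cell cannot be told apart. The stromal marker sum was 1940 to 2190 CPM in PBS_LPS and 1150 to 1310 CPM in PBS_NO, and 3340 to 3460 CPM in 4xLPS_LPS and 2260 to 2540 CPM in 4xLPS_NO, without overlap in either arm. It overlapped in the 1xLPS arm, with 2200 to 4400 CPM in 1xLPS_LPS and 1610 to 2750 CPM in 1xLPS_NO. Of the 7 stromal markers tested, 3, 1 and 1 were called higher in the PBS, 1xLPS and 4xLPS arms, and their part in the responses was not tested. Other marker sums that did not overlap were higher in PBS_LPS for neutrophils (126 to 146 CPM, against 101 to 123 CPM in PBS_NO) and eosinophils (6.44 to 8.45 CPM, against 4.7 to 5.79 CPM). In 4xLPS_LPS those of macrophages (14000 to 16000 CPM, against 17100 to 19300 CPM in 4xLPS_NO) and platelets (88.1 to 96.7 CPM, against 105 to 148 CPM) were lower, and T, NK and B cell markers (0.853 to 1.04 CPM, against 0.627 to 0.851 CPM) were higher. Their part was not tested.

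**Figure D1:**
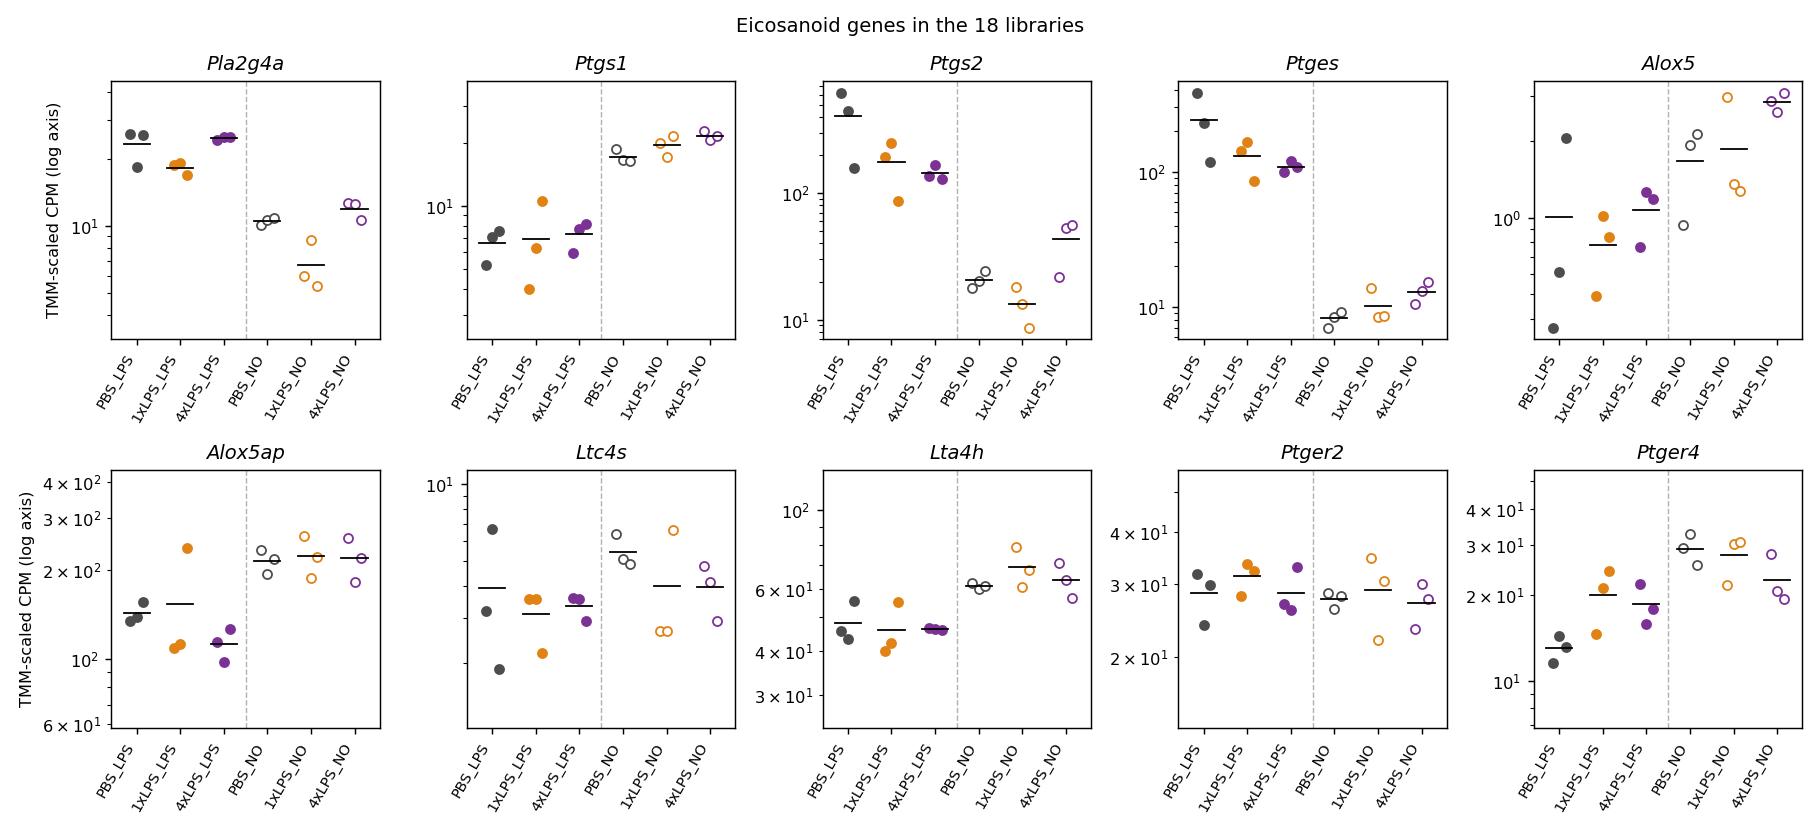
TMM-scaled CPM (log axis) of the 10 genes in each of the 18 libraries by group, with stimulated groups filled and unstimulated groups open, and group means as horizontal lines. Ptgs2 and Ptges were at 87.2 CPM and 84.7 CPM or more in every stimulated library, and at 55.6 CPM and 15.3 CPM or less in every unstimulated one.

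Pla2g4a encodes the cytosolic phospholipase A2 that releases arachidonate on a calcium signal (mm10, chromosome 1, 149829618 to 149961290, minus strand). It had 25.8, 18.3 and 25.6 CPM in the PBS_LPS libraries, against 10.1, 10.6 and 10.8 CPM in PBS_NO. The 1xLPS_LPS libraries held 18.7, 19.15 and 16.9 CPM, against 5.99, 8.66 and 5.38 CPM in 1xLPS_NO. The 4xLPS_LPS libraries held 24.2, 25.2 and 25.1 CPM, against 12.65, 12.5 and 10.6 CPM in 4xLPS_NO. Every stimulated library was above every unstimulated one, across arms as well as within them. Pla2g4a rose by a log2 fold change of 1.14 ± 0.18 in the PBS arm (adjusted p = 9.1e-05), 1.43 ± 0.18 in the 1xLPS arm (1.3e-05) and 1.06 ± 0.18 in the 4xLPS arm (0.00029). These values and those below are from edgeR's quasi-likelihood fit, with its SE and with 3 libraries per group.

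Ptgs2, the inducible cyclooxygenase COX-2 (chromosome 1, 150100031 to 150108227, plus strand), had 622, 447 and 158 CPM in the PBS_LPS libraries, against 17.8, 20.2 and 24.1 CPM in PBS_NO. It had 192, 250.3 and 87.2 CPM in 1xLPS_LPS, against 18.0, 13.2 and 8.64 CPM in 1xLPS_NO. In the 4xLPS arm it had 138, 168 and 130.5 CPM in 4xLPS_LPS, against 21.8, 53.3 and 55.6 CPM in 4xLPS_NO. The conditions did not overlap in any arm, PBS_LPS spread most widely, and libraries 2 and 3 of 4xLPS_NO were above every other unstimulated library. Ptgs2 rose by a log2 fold change of 4.30 ± 0.49 in the PBS arm (19.75-fold, adjusted p = 2.2e-06 by edgeR), 3.71 ± 0.48 in the 1xLPS arm (13.1-fold, 1.4e-05) and 1.74 ± 0.44 in the 4xLPS arm (3.33-fold, 0.0086).

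Ptges, the inducible microsomal synthase that completes prostaglandin E2 (chromosome 2, 30889471 to 30929863, minus strand), had 381, 226 and 118 CPM in the PBS_LPS libraries, against 7.075, 8.48 and 9.22 CPM in PBS_NO. It had 141, 164.5 and 84.7 CPM in 1xLPS_LPS, against 13.8, 8.47 and 8.54 CPM in 1xLPS_NO. It had 99.0, 119 and 109 CPM in 4xLPS_LPS, against 10.6, 13.1 and 15.3 CPM in 4xLPS_NO. No stimulated library came near an unstimulated one, and PBS_LPS library 3 was again the lowest of its group. Ptges rose by a log2 fold change of 4.87 ± 0.37 in the PBS arm (29.25-fold, adjusted p = 1.6e-08 by edgeR), 3.65 ± 0.35 in the 1xLPS arm (12.6-fold, 4.4e-07) and 3.06 ± 0.34 in the 4xLPS arm (8.34-fold, 3e-06).

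Ptgs1, the constitutive cyclooxygenase COX-1 (chromosome 2, 36230426 to 36252272, plus strand), had 5.19, 7.06 and 7.59 CPM in PBS_LPS, against 18.7, 16.6 and 16.3 CPM in PBS_NO. It had 3.995, 6.31 and 10.5 CPM in 1xLPS_LPS, against 20.1, 17.1 and 21.7 CPM in 1xLPS_NO. It had 5.93, 7.77 and 8.17 CPM in 4xLPS_LPS, against 22.7, 20.7 and 21.7 CPM in 4xLPS_NO. Every stimulated library was below every unstimulated one. Ptgs1 changed by a log2 fold change of -1.37 ± 0.26 in the PBS arm (adjusted p = 6e-04 by edgeR), -1.50 ± 0.26 in the 1xLPS arm (3e-04) and -1.57 ± 0.26 in the 4xLPS arm (0.00021). A predicted gene on the opposite strand covers 3.8% of its exon bases. Because the strand setting of the counting is not known here, reads of such overlaps cannot be told apart.

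**Figure D2:**
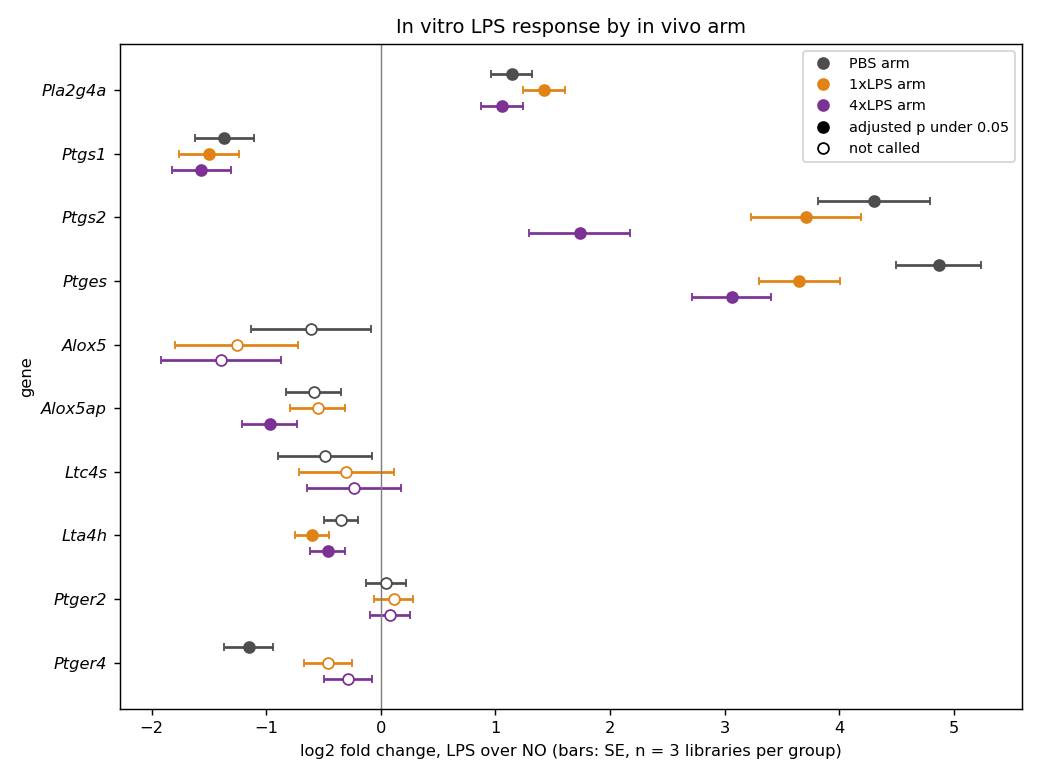
Log2 fold change of LPS over NO in the PBS, 1xLPS and 4xLPS arms for each gene, with SE bars (3 libraries per group). Filled points passed an adjusted p of 0.05: Ptgs2, Ptges and Pla2g4a lie right of 0, and Ptgs1 left of 0, in all 3 arms.

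To set the 2 cyclooxygenases side by side, CPM was divided by the length of each gene's annotated exons in kilobases. The share of Ptgs2 in their summed per-kilobase level averaged 97.3 ± 2.33% in PBS_LPS and 50.4 ± 5.47% in PBS_NO (SD, n = 3 each). It averaged 94.1 ± 5.67% in 1xLPS_LPS and 36.0 ± 9.49% in 1xLPS_NO, and 94.4 ± 1.09% in 4xLPS_LPS and 60.7 ± 13.7% in 4xLPS_NO. The lowest stimulated library stood at 87.6% and the highest unstimulated one at 68.6%, so the conditions did not overlap. Single unstimulated libraries stood at 44.7, 50.9 and 55.6% (PBS_NO), 43.2, 39.5 and 25.2% (1xLPS_NO) and 44.9, 68.6 and 68.4% (4xLPS_NO), with 4xLPS_NO library 1 among those of the other arms. These shares are a description, since 3 libraries against 3 cannot give an exact permutation p under 0.05.

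**Figure D3:**
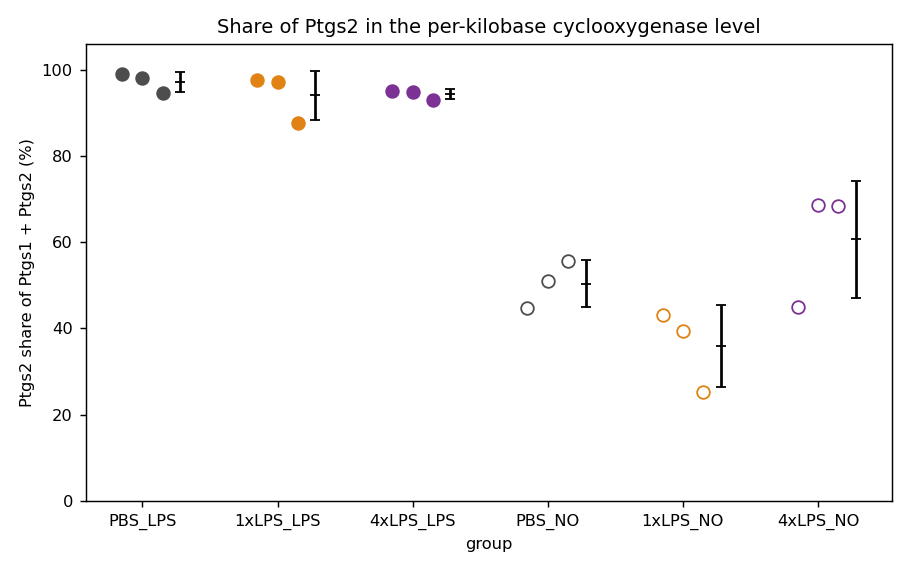
Share of Ptgs2 in the summed CPM per kilobase of Ptgs1 and Ptgs2, in percent, for each library (points), with the group mean and SD (bars). Stimulated libraries lie between 87.6% and 99.0% and unstimulated ones between 25.2% and 68.6%.

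In the leukotriene branch no gene rose. Alox5, 5-lipoxygenase itself (chromosome 6, 116410077 to 116461178, minus strand), was scarce, with 5 to 104 counts in a stimulated library and 12 to 80 in an unstimulated one. Its level was 0.371, 0.6115 and 2.04 CPM in PBS_LPS and 0.9355, 1.93 and 2.12 CPM in PBS_NO. It was 0.491, 1.01 and 0.842 CPM in 1xLPS_LPS and 2.96, 1.355 and 1.265 CPM in 1xLPS_NO, and 0.7675, 1.26 and 1.185 CPM in 4xLPS_LPS and 2.85, 2.59 and 3.08 CPM in 4xLPS_NO. The conditions overlapped in the PBS arm through PBS_LPS library 3 and did not overlap in the other arms. The log2 fold changes of -0.61 ± 0.52, -1.26 ± 0.53 and -1.40 ± 0.52 in the PBS, 1xLPS and 4xLPS arms were not called by edgeR (adjusted p = 0.42, 0.1 and 0.073). Without PBS_LPS library 3 the fold change in the PBS arm was -1.74 (adjusted p = 0.033 by edgeR), and those in the 1xLPS and 4xLPS arms were also called (0.043 and 0.024). The 4xLPS arm was called without 1xLPS_NO library 1 too (0.04). It was also called by DESeq2 (adjusted p = 0.031) and limma (0.026), and by edgeR with no filter on low counts (0.049), with only the compared groups fitted (0.0034) and without both libraries that stand apart (0.037), 7 of the 27 alternatives that gave it a value.

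Alox5ap, the FLAP protein that presents arachidonate to 5-lipoxygenase (chromosome 5, 149264767 to 149288153, plus strand), was abundant. It had 135, 139 and 156 CPM in PBS_LPS, against 234, 193.5 and 218 CPM in PBS_NO. It had 108.5, 112 and 239 CPM in 1xLPS_LPS, against 261, 189 and 223 CPM in 1xLPS_NO, and 114, 97.9 and 126 CPM in 4xLPS_LPS, against 258, 183 and 221 CPM in 4xLPS_NO. The conditions overlapped in the 1xLPS arm only, through 1xLPS_LPS library 3, which stands apart. Alox5ap fell by 0.97 ± 0.24 on the log2 scale in the 4xLPS arm (adjusted p = 0.0075 by edgeR), and was not called in the PBS arm (-0.58 ± 0.24, 0.082) or the 1xLPS arm (-0.55 ± 0.24, 0.11). Without 1xLPS_LPS library 3 the values were -1.05 in the 1xLPS arm (adjusted p = 0.00032 by edgeR) and -0.61 in the PBS arm (0.007). The call also depended on the scaling and the fit. The PBS arm was called with upper quartile factors (-0.73, adjusted p = 0.027 by edgeR), library totals only (-0.80, 0.0046) and only the compared groups (0.0047). It was also called without both libraries that stand apart (0.0027) and by limma, which likewise scaled by library totals (0.0034). The 1xLPS arm was called with library totals only (-0.71, adjusted p = 0.012 by edgeR), without both libraries that stand apart (-0.91, 0.00051) and by limma (0.0057). A predicted gene on the opposite strand covers 13.3% of its exon bases.

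Lta4h, the hydrolase that makes leukotriene B4 (chromosome 10, 93453411 to 93484875, plus strand), had 45.4, 43.0 and 55.4 CPM in PBS_LPS and 62.2, 59.7 and 61.1 CPM in PBS_NO. It had 39.95, 42.0 and 55.0 CPM in 1xLPS_LPS and 78.8, 60.8 and 67.7 CPM in 1xLPS_NO, and 46.3, 46.0 and 45.9 CPM in 4xLPS_LPS and 70.8, 63.5 and 56.5 CPM in 4xLPS_NO. The conditions did not overlap in any arm, and the shifts were small. Lta4h fell by 0.60 ± 0.15 on the log2 scale in the 1xLPS arm (adjusted p = 0.0071 by edgeR) and by 0.47 ± 0.15 in the 4xLPS arm (0.035), while the PBS arm gave -0.35 ± 0.15 (0.099). The 1xLPS call ended when only the compared groups were fitted (adjusted p = 0.13) and with no filter on low counts (0.085). The 4xLPS call ended with no filter (0.2) and without 4xLPS_LPS library 1 (0.057), 2 (0.078) or 3 (0.06) or 4xLPS_NO library 1 (0.15). The PBS arm was called without PBS_LPS library 3 (0.042), 1xLPS_LPS library 3 (0.045) or 1xLPS_NO library 1 (0.049). It was also called with library totals only (-0.56, adjusted p = 0.0036 by edgeR), upper quartile factors (-0.49, 0.016), a filter of 5 CPM (0.047), without both libraries that stand apart (0.031) and by limma (-0.56, 0.0027).

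Ltc4s, the synthase of leukotriene C4 (chromosome 11, 50236461 to 50238616, minus strand), was low, at 1.90 to 6.68 CPM over the stimulated and 2.66 to 6.64 CPM over the unstimulated libraries. The conditions overlapped in every arm. Its log2 fold changes of -0.49 ± 0.41, -0.30 ± 0.42 and -0.24 ± 0.41 in the PBS, 1xLPS and 4xLPS arms were not called by edgeR (adjusted p = 0.41, 0.64 and 0.73). A predicted gene on the opposite strand covers 26.4% of its exon bases, the largest such share among the 10.

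EP2 and EP4 are the prostaglandin E2 receptors that raise cyclic AMP. Ptger4, which encodes EP4 (chromosome 15, 5206661 to 5244187, minus strand), had 11.5, 14.4 and 13.15 CPM in PBS_LPS, against 29.1, 32.6 and 25.4 CPM in PBS_NO. It had 14.5, 21.1 and 24.2 CPM in 1xLPS_LPS and 21.7, 30.1 and 30.8 CPM in 1xLPS_NO, and 21.9, 15.8 and 17.8 CPM in 4xLPS_LPS and 27.9, 20.6 and 19.3 CPM in 4xLPS_NO. The conditions were well apart in the PBS arm and overlapped in the others. Ptger4 fell by 1.16 ± 0.21 on the log2 scale in the PBS arm (adjusted p = 0.00043 by edgeR), and was not called in the 1xLPS arm (-0.46 ± 0.21, 0.12) or the 4xLPS arm (-0.29 ± 0.21, 0.37). The 1xLPS arm was called without 1xLPS_LPS library 3 (-0.64, adjusted p = 0.041 by edgeR) or 1xLPS_NO library 1 (-0.61, 0.049). It was also called without both of these libraries (-0.78, adjusted p = 0.015 by edgeR), with library totals only (0.035) and by limma (0.044). Exons on the opposite strand, of Ttc33 and a predicted gene, cover 16.5% of its exon bases.

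Ptger2, which encodes EP2 (chromosome 14, 44988195 to 45003820, plus strand), stayed between 23.9 and 33.6 CPM over the stimulated and between 22.0 and 34.7 CPM over the unstimulated libraries. The conditions overlapped in every arm. Its log2 fold changes of 0.05 ± 0.17, 0.11 ± 0.17 and 0.08 ± 0.17 in the PBS, 1xLPS and 4xLPS arms were not called by edgeR (adjusted p = 0.88, 0.68 and 0.78), and the sign in the PBS arm turned with the scaling.

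The order of the levels per kilobase of exon differed between conditions. In PBS_LPS, Alox5ap stood at 101.0 ± 7.91 CPM per kilobase (SD, n = 3 here and below), Ptgs2 at 89.3 ± 51.1 and Ptges at 61.5 ± 33.6, and these 3 did not differ beyond their spread. Below them came Lta4h at 7.86 ± 1.08, Ptger2 at 5.48 ± 0.781, Ltc4s at 3.87 ± 2.44, Pla2g4a at 3.64 ± 0.669, Ptger4 at 1.96 ± 0.219, Ptgs1 at 1.7 ± 0.325 and Alox5 at 0.245 ± 0.22 CPM per kilobase. Ptger2, Pla2g4a, Ptger4 and Ptgs1 lay within the spread of Ltc4s, and Ptger4 also within that of Ptgs1. In PBS_NO, Alox5ap at 151.0 ± 14.2 and Lta4h at 9.99 ± 0.205 CPM per kilobase led. Ltc4s (5.38 ± 0.792), Ptger2 (5.3 ± 0.248), Ptgs2 (4.52 ± 0.692), Ptgs1 (4.42 ± 0.334) and Ptger4 (4.37 ± 0.543) followed, and the mean ± SD range of each overlapped that of the next. Ptges (2.1 ± 0.277), Pla2g4a (1.65 ± 0.0565) and Alox5 (0.405 ± 0.155 CPM per kilobase) were the lowest. With longest transcripts in place of all exons the order changed: in PBS_NO Ptger4 (7.7 ± 0.957) stood above Ltc4s (7.62 ± 1.12), Ptgs1 (5.99 ± 0.453) above Ptgs2 (4.65 ± 0.712 CPM per kilobase) with ranges that no longer overlapped, and Pla2g4a (3.04 ± 0.105) above Ptges (2.26 ± 0.299). In PBS_LPS Pla2g4a (6.73 ± 1.24) then stood above Ltc4s (5.48 ± 3.45), and the range of Ptger4 (3.45 ± 0.386) no longer overlapped that of Ptgs1 (2.31 ± 0.44 CPM per kilobase). Alox5ap had the highest mean and Alox5 the lowest of the 10 in each of the 6 groups.

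The next comparisons set the in vivo arms side by side within each in vitro condition, to ask whether LPS given to the mouse left a trace in the cultured cells. edgeR called none of the 10 genes in any of the 6 comparisons. Over all genes it called 0.0777% (11 of 14158, with 0.0636% higher and 0.0141% lower) for 4xLPS over PBS among stimulated cultures and 0% in the other 5. At an unadjusted p under 0.05 there were 3, 3 and 1 of the 10 for 1xLPS over PBS, 4xLPS over PBS and 4xLPS over 1xLPS in stimulated cultures, beside 1085, 1963 and 848 of all genes. In unstimulated cultures there were 1, 1 and 2 of the 10, beside 1669, 849 and 1352 of all genes. DESeq2 called Ptges for 4xLPS over PBS in stimulated cultures, where it called 326 of all genes. It called Pla2g4a for 4xLPS over 1xLPS in unstimulated ones, where it called 37 of all genes. None of the 10 was called by limma in any of the 6, beside 62 of all genes for 4xLPS over PBS in stimulated cultures. With no filter on low counts, edgeR called Ptgs2 and Ptges for 4xLPS over PBS (adjusted p = 5.7e-09 and 3.4e-05) and for 1xLPS over PBS (6.9e-05 and 0.018) in stimulated cultures, and Ptgs2 for 4xLPS over PBS (0.00055) and over 1xLPS (7.4e-11) in unstimulated ones. For these comparisons, in the same order, that fit called 248, 93, 130 and 35 of the 36511 genes it tested. The authors' deposited table gives the verdict "Good DE" for 4xLPS against PBS with LPS and "Small DE" for the same pair without it. Its verdict is "No DE" for 1xLPS against PBS and against 4xLPS, with and without LPS.

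Among stimulated cultures, Ptgs2 gave a log2 fold change of -1.49 ± 0.43 in 4xLPS_LPS over PBS_LPS (unadjusted p = 0.00297, adjusted p = 0.16 by edgeR) and of -1.21 ± 0.43 in 1xLPS_LPS over PBS_LPS (adjusted p = 0.58). Ptges gave -1.15 ± 0.32 in 4xLPS_LPS over PBS_LPS (adjusted p = 0.15 by edgeR) and -0.89 ± 0.32 in 1xLPS_LPS over PBS_LPS (0.58). For both genes the groups overlapped through PBS_LPS library 3. Without that library Ptges was called for 4xLPS over PBS (-1.50, adjusted p = 0.044 by edgeR). Over all genes, leaving out single libraries gave 0 to 54 calls for this pair, against 11 with all libraries. Without both libraries that stand apart Ptgs2 (-1.53, adjusted p = 0.035 by edgeR) and Ptges (-1.19, 0.027) were called, beside 574 of all genes. Ptger4 gave 0.50 ± 0.21 in 4xLPS_LPS over PBS_LPS (adjusted p = 0.3 by edgeR) and 0.61 ± 0.21 in 1xLPS_LPS over PBS_LPS (0.58), with no overlap in either. The stromal marker sum was 3340 to 3460 CPM in 4xLPS_LPS and 2200 to 4400 CPM in 1xLPS_LPS, against 1940 to 2190 CPM in PBS_LPS. Eosinophil markers were at 3.64 to 5.76 CPM in 4xLPS_LPS and 4.03 to 6.26 CPM in 1xLPS_LPS, against 6.44 to 8.45 CPM in PBS_LPS. Neutrophil markers (62.7 to 88.9 CPM, against 126 to 146 CPM) and mast cell and basophil markers (2.42 to 4.68 CPM, against 5.19 to 7.2 CPM) were also lower in 1xLPS_LPS than in PBS_LPS without overlap. The part of these markers was not tested.

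In unstimulated cultures Ptgs2 gave a log2 fold change of 1.08 ± 0.44 in 4xLPS_NO over PBS_NO (adjusted p = 0.65 by edgeR) and of 1.69 ± 0.45 in 4xLPS_NO over 1xLPS_NO (0.35). The second pair of groups did not overlap, and in the first 4xLPS_NO library 1 lay among the PBS_NO libraries. Pla2g4a gave -0.63 ± 0.18 in 1xLPS_NO over PBS_NO (adjusted p = 0.35 by edgeR) and 0.81 ± 0.18 in 4xLPS_NO over 1xLPS_NO (0.33), with no overlap in either. Without 1xLPS_NO library 2 both were called, at -0.87 (adjusted p = 0.015 by edgeR) and 1.06 (0.018). Leaving that library out moved the count over all genes for 1xLPS over PBS in unstimulated cultures to 1588, against 0 with all libraries. For 4xLPS over 1xLPS in unstimulated cultures the count ran between 0 and 573 over removals of single libraries. The stromal marker sum was 2260 to 2540 CPM in 4xLPS_NO and 1610 to 2750 CPM in 1xLPS_NO, against 1150 to 1310 CPM in PBS_NO. Platelet markers were at 105 to 148 CPM in 4xLPS_NO and 74.8 to 82.1 CPM in PBS_NO. The part of both was not tested.

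The last comparison tested whether the LPS response itself differed between arms, as a difference of log2 fold changes. edgeR called none of the 10 genes and 0% of all genes in each of the 3 tests. At an unadjusted p under 0.05 there were 2, 3 and 1 of the 10 for 1xLPS over PBS, 4xLPS over PBS and 4xLPS over 1xLPS, beside 1154, 803 and 300 of all genes. DESeq2 called 1 of the 10 (Ptges, 4xLPS over PBS, -1.88, adjusted p = 0.049), beside 6 of all genes in that test, and limma called 0 of the 10. With no filter on low counts, edgeR called Ptgs2 for 4xLPS over PBS (-2.58, adjusted p = 6.2e-14) and over 1xLPS (-2.02, 2e-07), and Ptges for 4xLPS over PBS (-1.81, 5.9e-06) and 1xLPS over PBS (-1.17, 0.024). Of the 36511 genes tested it called 33 for 4xLPS over PBS, 4 for 4xLPS over 1xLPS and 144 for 1xLPS over PBS. In that fit the posterior dispersion of Ptgs2 was 0.798, against 3.89 with the filter, and that of Ptges 0.799, against 2.18. For Ptgs2 the difference was -2.57 ± 0.62 for 4xLPS over PBS (unadjusted p = 0.000577, adjusted p = 0.81 by edgeR) and -1.97 ± 0.62 for 4xLPS over 1xLPS. For Ptges it was -1.81 ± 0.46 for 4xLPS over PBS (adjusted p = 0.81 by edgeR) and -1.22 ± 0.46 for 1xLPS over PBS (0.52). For Ptger4 it was 0.87 ± 0.29 for 4xLPS over PBS (adjusted p = 0.81 by edgeR), opposite in sign. Calls made in some arms and not in others are therefore not shown to be differences between arms: for Alox5ap the difference for 4xLPS over PBS was -0.38 ± 0.34 (adjusted p = 0.84 by edgeR). The tests of 1xLPS and of 4xLPS over PBS share their PBS libraries, in which Ptgs2 ran between 158 and 622 CPM with LPS.

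**Figure D4:**
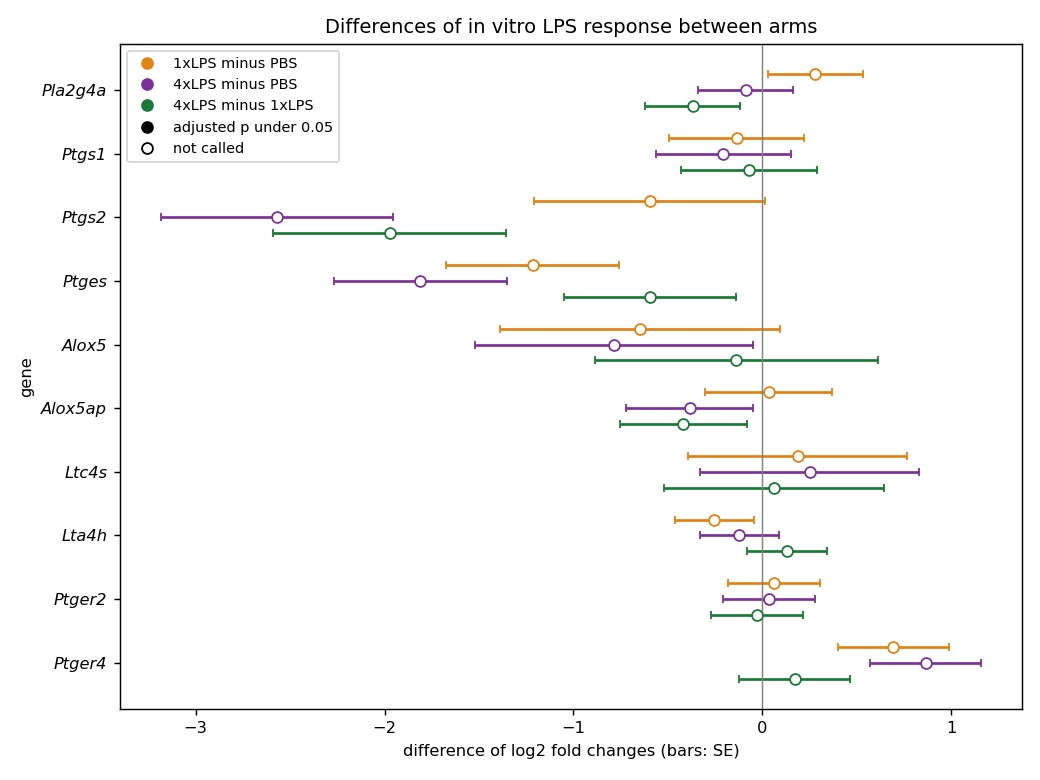
Difference of the log2 LPS response between arms for each gene, with SE bars. All points are open, since none passed an adjusted p of 0.05; Ptgs2 (-2.57) and Ptges (-1.81) lie farthest from 0 for 4xLPS minus PBS.

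Other genes of the pathway were taken from 8 lists, of which 68 genes were tested. The lists were written with earlier results of these data known, so the counts below are a description and no test of the lists. With LPS, 39 of the 68 were called in at least 1 arm, where 34.3% of all genes tested were. In all 3 arms 16 were called higher and 8 lower, beside 7.40% and 5.67% of all genes. For the lists below, the shares of all genes called in the PBS, 1xLPS and 4xLPS arms were 14.0, 12.0 and 10.6% higher and 11.3, 10.8 and 8.29% lower, and the medians over all genes were -0.02, -8e-04 and 0.05. Of 76 calls of those genes picked by the naming rule, 29 ended under at least 1 alternative, 14 of them with only the compared groups fitted and 10 with no filter on low counts. None was called in a comparison between arms or of responses. Among other prostanoid receptors Ptgir, the prostacyclin receptor, rose by a log2 fold change of 2.80 ± 0.17 in the PBS arm, 2.62 ± 0.17 in the 1xLPS arm and 2.73 ± 0.17 in the 4xLPS arm (adjusted p = 9.4e-10, 3.7e-09 and 3.1e-09 by edgeR). Only 2 of the 7 genes on that list were tested. The other, Ptgfr, was called higher in the 4xLPS arm only (1.66 ± 0.48, adjusted p = 0.02 by edgeR). It was low there, at a mean of 1.73 CPM in 4xLPS_LPS and 0.545 CPM in 4xLPS_NO. Of 5 receptors on the list for leukotrienes and other mediators, 3, 2 and 2 were called higher in the PBS, 1xLPS and 4xLPS arms. None was called lower, and the median log2 fold change of the 5 was 0.985, 0.445 and 0.175. Those called were Fpr1 and Fpr2 in every arm and Cmklr1 in the PBS arm (0.98 ± 0.21, adjusted p = 0.0016 by edgeR). No leukotriene receptor that was tested was called, and Ltb4r2, Cysltr2 and Oxgr1 of this list fell under the filter on low counts. Cysltr1 gave 0.18 in the PBS arm, and -0.05 with library totals only. Fpr1 and Fpr2, formyl peptide receptors, had log2 fold changes of 5.38 ± 0.43 and 5.72 ± 0.47 in the PBS arm and of 3.87 ± 0.40 and 4.46 ± 0.46 in the 4xLPS arm. They belong to a multigene family in which reads can be shared, so their values are uncertain.

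Of 12 genes on the list headed arachidonate release and recycling, 1, 1 and 0 were called higher in the PBS, 1xLPS and 4xLPS arms. A place on that list does not show that a gene's product releases arachidonate, and release was not measured. In the same arms 2, 2 and 3 were called lower, and the median log2 fold change of the 12 was 0.04, -0.203 and -0.224. Those higher were Pla2g7 in the PBS arm (0.69 ± 0.15, adjusted p = 0.0024 by edgeR) and Acsl4 in the 1xLPS arm (1.08 ± 0.24, 0.0028). In the PBS arm Daglb, a diacylglycerol lipase, fell by 1.38 ± 0.20 on the log2 scale (adjusted p = 3.8e-05 by edgeR) and Pla2g15, the lysosomal phospholipase A2, by 1.10 ± 0.23 (0.0015). Their calls in the 1xLPS arm ended with only the compared groups fitted (adjusted p = 0.11 and 0.17 by edgeR), and that of Pla2g15 without 1xLPS_LPS library 1 (0.1) or 2 (0.098) or 1xLPS_NO library 1 (0.061). Of 7 other prostanoid synthases 1 was called higher in each arm, the carbonyl reductase Cbr3 (0.72 ± 0.21 in the PBS arm, adjusted p = 0.016 by edgeR). The median of these 7 was 0.059, -0.196 and -0.315 in the PBS, 1xLPS and 4xLPS arms. The Cbr3 call ended in the PBS arm without PBS_LPS library 1 (adjusted p = 0.055 by edgeR) or PBS_NO library 3 (0.085), in the 4xLPS arm without 4xLPS_LPS library 3 (0.052) or 4xLPS_NO library 2 (0.073) or 3 (0.066), and in the 1xLPS arm under most single-library removals and with RLE or upper quartile factors (0.057 each) or only the compared groups (0.22). Hpgds, the hematopoietic prostaglandin D synthase, fell by 0.88 ± 0.21 in the PBS arm (adjusted p = 0.0039 by edgeR). Hpgds was not called in the 1xLPS arm (-0.53 ± 0.21, 0.076) or the 4xLPS arm (-0.29 ± 0.21, 0.36). Tbxas1, thromboxane synthase, gave -0.31 ± 0.23, -0.47 ± 0.23 and -0.60 ± 0.23 in the PBS, 1xLPS and 4xLPS arms and was not called. Of 5 genes of prostaglandin breakdown and transport, 1 was called higher and 1 lower in each arm, with a median log2 fold change of -0.045, -0.2 and -0.344 in the PBS, 1xLPS and 4xLPS arms. Ptgr1, a reductase that inactivates prostaglandins and leukotriene B4, rose by 0.93 ± 0.17 in the PBS arm (adjusted p = 0.00038 by edgeR). Its call ended in the 1xLPS arm with only the compared groups fitted (adjusted p = 0.13 by edgeR) and in the 4xLPS arm without 4xLPS_LPS library 2 (0.055) or 3 (0.095) or 4xLPS_NO library 2 (0.11) or 3 (0.066).

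Of 13 other lipoxygenases and genes of leukotriene turnover, 3 were called higher in each arm and 1, 2 and 2 lower in the PBS, 1xLPS and 4xLPS arms, with a median log2 fold change of -0.033, 0.231 and -0.259. Those higher were Abcc1, an exporter of leukotriene C4 (2.06 ± 0.20 in the PBS arm, adjusted p = 2.9e-07 by edgeR), Ephx1, an epoxide hydrolase (1.06 ± 0.20), and Dpep2, a dipeptidase that acts on leukotriene D4 (0.81 ± 0.18). The calls of Ephx1 and Dpep2 in the 1xLPS arm ended with only the compared groups fitted (adjusted p = 0.062 and 0.19 by edgeR), and those in the 4xLPS arm without 4xLPS_NO library 2 (0.063 and 0.097) or 3 (0.067 and 0.096). Dpep2 was also not called in the 4xLPS arm without 4xLPS_LPS library 1 (0.1), nor in the 1xLPS arm with library totals only (0.054) or without 1xLPS_LPS library 2 (0.12), 1xLPS_NO library 1 (0.06) or both libraries that stand apart (0.091). Of 14 genes of cyclic AMP signalling, 2 were called higher in each arm and 7, 5 and 6 lower in the PBS, 1xLPS and 4xLPS arms, with a median log2 fold change of -0.506, -0.345 and -0.457. The adenylyl cyclases Adcy3, Adcy7 and Adcy9 fell in every arm, with log2 fold changes of -1.25 ± 0.16, -0.95 ± 0.17 and -1.13 ± 0.16 in the PBS arm. The calls of Adcy7 and Adcy9 in the 1xLPS arm ended with only the compared groups fitted (adjusted p = 0.053 and 0.06 by edgeR). Pde4b, a phosphodiesterase that degrades cyclic AMP, rose by 4.26 ± 0.21, 3.65 ± 0.20 and 3.75 ± 0.20 in the PBS, 1xLPS and 4xLPS arms. Of 10 regulators of Ptgs2 and 5-lipoxygenase, 6, 7 and 7 were called higher and 1 lower in each arm, with a median log2 fold change of 1.036, 1.072 and 1.015. Nfkb1, an NF-kappaB subunit, rose by 2.55 ± 0.17 in the PBS arm, the C/EBP factor Cebpd by 2.79 ± 0.32, and Mapkapk2, a kinase that stabilises inflammatory messenger RNA, by 2.29 ± 0.22. The 1 called lower was Cotl1, which binds 5-lipoxygenase and was named after its values were seen.

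**Figure D5:**
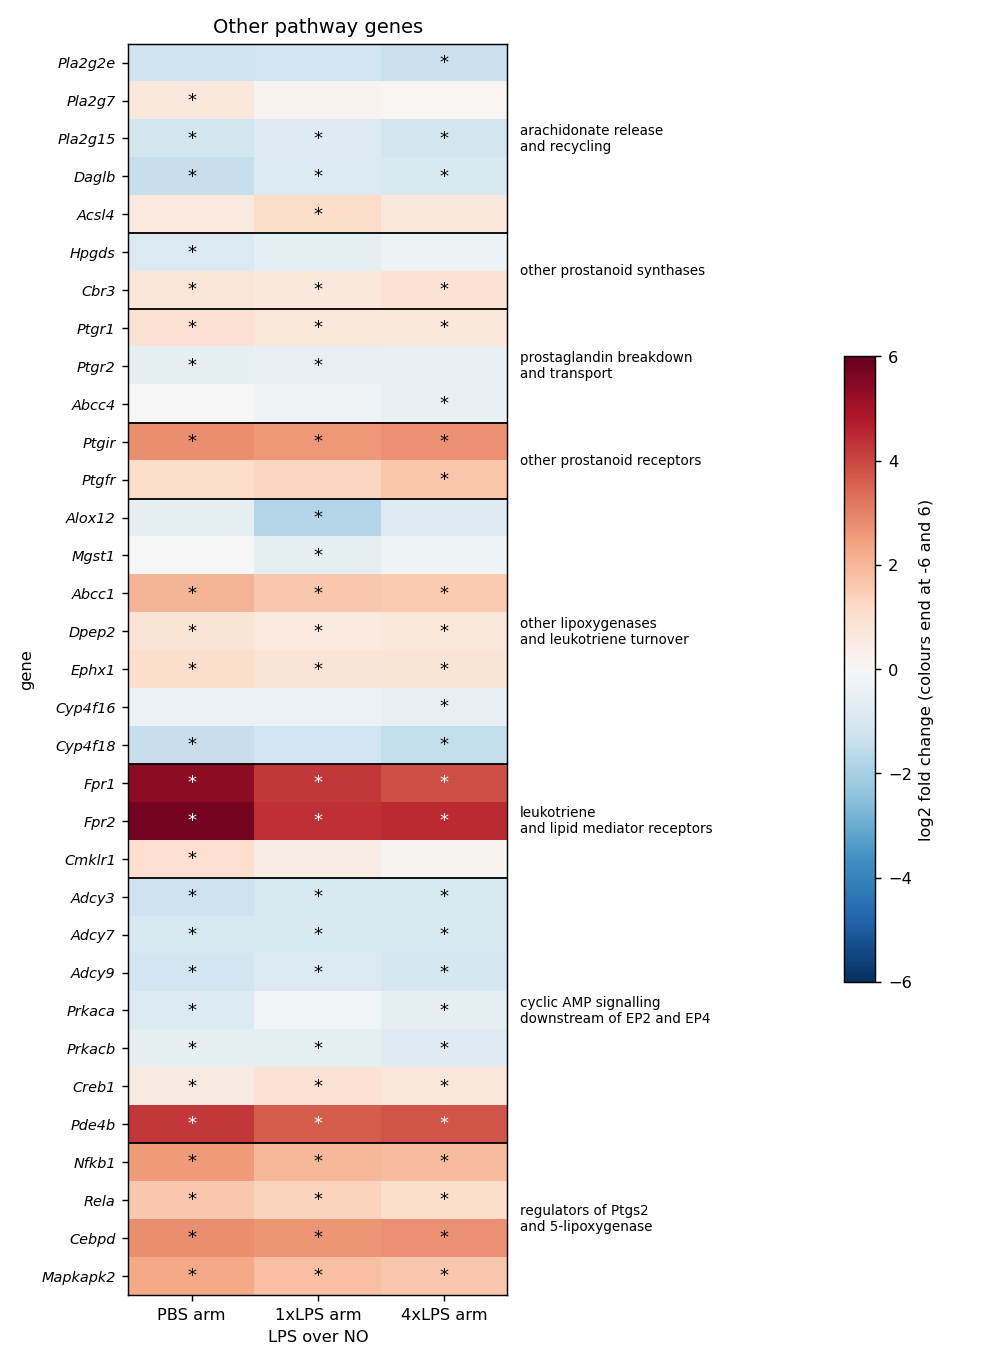
Log2 fold change of LPS over NO for genes of the 8 lists that were among the 4 called genes with the smallest p of their list in at least 1 arm, by arm (columns) and list (blocks of rows). Stars mark an adjusted p under 0.05; Fpr1, Fpr2 and Pde4b have the deepest red, at 3.65 or more in every arm.

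The genes most like each member over the 18 libraries are given as a description, by Pearson's r of log2(CPM + 1). Both in vitro conditions are pooled, so the libraries share the LPS split. Ptges was closest to Adora2a, an adenosine receptor (0.993), Maff (0.992) and the zinc transporter Slc39a14 (0.992). Ptgs2 was closest to Slc39a14 (0.975), the glucose transporter Slc2a1 (0.97) and Sept11 (0.966). Ptgs1 was closest to Myo7a (0.978), Pla2g4a to Phf10 (0.955), Alox5ap to Rab3d (0.969), Lta4h to Fbxw4 (0.964) and Ptger4 to Dhrs3 (0.905). The highest values were lower for Alox5 (0.885, Cdca7), Ltc4s (0.82, Hspa2) and Ptger2 (0.741, Rnf41).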

How the data were processed

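Bone marrow macrophage RNA of 18 libraries was selected for poly(A), made into libraries with the Ion Total RNA-seq Kit v2 and sequenced on an Ion Proton, per the labels' protocols. Torrent Suite 5.12, TopHat2, Bowtie2, Cufflinks and the mouse build mm10 are named per the submitters' processing notes. How reads were assigned to genes, with which annotation and strand option, is not given in the sources used here. The deposited table holds whole-number counts per gene symbol, made by the authors and not normalized, although its sheet is named for RPM.

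From these counts, edgeR 4.0.16 in R 4.3.3 fitted 1 mean for each of the 6 groups over all 18 libraries (TMM scaling, quasi-likelihood F test, 12 residual degrees of freedom). A gene was tested where 3 or more libraries reached 1 CPM, which left 14158, with Benjamini-Hochberg adjustment within each of the 12 contrasts and a threshold of 0.05. The common biological coefficient of variation was 23.9%. The fit was tested on simulated data. No 2 libraries held identical values. Positions and exon lengths are from GENCODE M21 and promoter windows from RefSeq on GRCm38.p6. DESeq2 1.42.0, limma 3.58.1, other scalings and filters, the replicate block and leaving out libraries were tried as alternatives. The CPM in the limma fit were scaled by library totals without TMM.

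The members and gene lists were chosen with earlier results of these data known. In each list and contrast, text and plots draw on up to 4 called genes with the smallest p and 1 not called gene with the highest mean. For likeness, the 3 highest correlations among genes of at least 5 CPM were kept. For 4xLPS over PBS without LPS, the deviations of same-numbered libraries correlated at 0.58, 0.2 and 0.37. No source says that a number marks a shared mouse or batch.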

Additional observations from a re-analysis of the deposited data

How the results depend on the processing

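Across 28 alternatives, 2 of the 16 called values of the 10 genes lost their call under at least 1 (Lta4h in the 1xLPS and 4xLPS arms), and none changed sign. Of the 104 values not called, 19 were called under at least 1 alternative. Of the 76 called values of other pathway genes, 29 lost their call under at least 1 alternative and none changed sign, and 34 of their values not called gained one. The turned signs below cover those genes for LPS over NO only, a restriction made after the number of values was seen. Of 233 log2 values of single genes, 60 turned in sign under at least 1 alternative, and none of the 60 was called. The cause was not tested. As reported, the count over all genes was 3579, 3228 and 2680 for LPS over NO in the PBS, 1xLPS and 4xLPS arms, 11 for 4xLPS over PBS with LPS and 0 elsewhere, and the count among the 10 was 5, 5, 6 and 0 elsewhere. With no filter, 36511 genes were tested and the prior degrees of freedom were infinite, against 5.95, so that the posterior dispersion of Ptgs2 was 0.798, against 3.89, and that of Ptges 0.799, against 2.18. The replicate block changed no call of the 10 genes, ended that of Pla2g2e in the 4xLPS arm (adjusted p = 0.056 by edgeR) and gave 12 calls over all genes, against 11, for 4xLPS over PBS with LPS. Same-numbered libraries correlated over 0.1 in all 3 pairs for 4xLPS over PBS without LPS alone. Library totals only moved the median of all genes by LPS to -0.234 in the PBS arm and -0.13 in the 1xLPS arm. At 5 to 104 counts per library, Alox5 is the member most limited by depth.

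With library totals only, the count over all genes was 19 for 4xLPS over PBS with LPS. With DESeq2, the count over all genes was 11 for 1xLPS over PBS with LPS, 326 for 4xLPS over PBS with LPS, 1 for 4xLPS over 1xLPS with LPS, 28 for 1xLPS over PBS without LPS, 110 for 4xLPS over PBS without LPS, 37 for 4xLPS over 1xLPS without LPS, 34 for the response difference 1xLPS over PBS and 6 for the response difference 4xLPS over PBS, and the count among the 10 was 1 for 4xLPS over PBS with LPS, 1 for 4xLPS over 1xLPS without LPS and 1 for the response difference 4xLPS over PBS. With limma on log2(CPM + 1), the count over all genes was 62 for 4xLPS over PBS with LPS. With no filter on low counts, the count over all genes was 93 for 1xLPS over PBS with LPS, 248 for 4xLPS over PBS with LPS, 44 for 4xLPS over 1xLPS with LPS, 159 for 1xLPS over PBS without LPS, 130 for 4xLPS over PBS without LPS, 35 for 4xLPS over 1xLPS without LPS, 144 for the response difference 1xLPS over PBS, 33 for the response difference 4xLPS over PBS and 4 for the response difference 4xLPS over 1xLPS, and the count among the 10 was 2 for 1xLPS over PBS with LPS, 2 for 4xLPS over PBS with LPS, 1 for 4xLPS over PBS without LPS, 1 for 4xLPS over 1xLPS without LPS, 1 for the response difference 1xLPS over PBS, 2 for the response difference 4xLPS over PBS and 1 for the response difference 4xLPS over 1xLPS. With only the compared groups fitted, the count over all genes was 1134 for LPS over NO in the 1xLPS arm, 4865 for LPS over NO in the 4xLPS arm, 282 for 4xLPS over PBS with LPS and 248 for 4xLPS over PBS without LPS. Without both libraries that stand apart, the count over all genes was 4068 for LPS over NO in the 4xLPS arm, 574 for 4xLPS over PBS with LPS, 241 for 4xLPS over PBS without LPS and 55 for 4xLPS over 1xLPS without LPS, and the count among the 10 was 2 for 4xLPS over PBS with LPS. Leaving out 1 library at a time, the count over all genes ran between 0 and 1 for 1xLPS over PBS with LPS, between 0 and 54 for 4xLPS over PBS with LPS, between 0 and 17 for the response difference 1xLPS over PBS, between 0 and 2 for 4xLPS over 1xLPS with LPS, between 0 and 66 for 4xLPS over PBS without LPS, between 0 and 1588 for 1xLPS over PBS without LPS and between 0 and 573 for 4xLPS over 1xLPS without LPS, and the count among the 10 between 0 and 1 for 4xLPS over PBS with LPS, between 0 and 1 for 1xLPS over PBS without LPS and between 0 and 1 for 4xLPS over 1xLPS without LPS.

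With RLE size factors, turned log2 values were -0.03 (Anxa1) for LPS over NO in the 4xLPS arm, -0.04 (Ptger2) for 4xLPS over PBS with LPS, -0.02 (Lta4h) for 4xLPS over 1xLPS with LPS, -0.01 (Alox5ap) for the response difference 1xLPS over PBS and -0.03 (Ptger2) for the response difference 4xLPS over PBS. With upper quartile factors, turned log2 values were -0.10 (Ptger2), -0.14 (Gpx4) and -0.12 (Anxa1) for LPS over NO in the PBS arm, -0.05 (Anxa1) for LPS over NO in the 4xLPS arm, 0.07 (Alox5) and 0.02 (Lta4h) for 4xLPS over PBS with LPS and 0 (Alox5ap) for 4xLPS over 1xLPS without LPS. With library totals only, turned log2 values were -0.17 (Ptger2), -0.20 (Gpx4), -0.05 (Cysltr1) and -0.19 (Anxa1) for LPS over NO in the PBS arm, -0.01 (Ptger2) for LPS over NO in the 1xLPS arm, 0.19 (Alox5), 0.01 (Ltc4s) and 0.16 (Lta4h) for 4xLPS over PBS with LPS, 0.06 (Ptger2) and 0.11 (Ptger4) for 4xLPS over 1xLPS with LPS, -0.01 (Alox5ap) for 1xLPS over PBS without LPS, 0.04 (Alox5ap) for 4xLPS over 1xLPS without LPS, 0 (Ptgs1), 0.13 (Pla2g4a) and 0.09 (Lta4h) for the response difference 4xLPS over PBS and 0.10 (Ptgs1) and 0.08 (Ptger2) for the response difference 4xLPS over 1xLPS. With DESeq2, turned log2 values were -0.03 (Anxa1) for LPS over NO in the 4xLPS arm, -0.04 (Ptger2) for 4xLPS over PBS with LPS, -0.02 (Lta4h) for 4xLPS over 1xLPS with LPS, -0.01 (Alox5ap) for the response difference 1xLPS over PBS and -0.03 (Ptger2) for the response difference 4xLPS over PBS. With limma on log2(CPM + 1), turned log2 values were -0.17 (Ptger2), -0.20 (Gpx4), -0.10 (Cysltr1) and -0.20 (Anxa1) for LPS over NO in the PBS arm, 0 (Ptger2) for LPS over NO in the 1xLPS arm, 0.22 (Alox5), 0.11 (Ltc4s) and 0.17 (Lta4h) for 4xLPS over PBS with LPS, 0.04 (Ptgs2), 0.06 (Ptger2) and 0.10 (Ptger4) for 4xLPS over 1xLPS with LPS, -0.01 (Alox5ap) and -0.01 (Ptger2) for 1xLPS over PBS without LPS, 0.04 (Alox5ap) for 4xLPS over 1xLPS without LPS, 0.15 (Pla2g4a) and 0.11 (Lta4h) for the response difference 4xLPS over PBS and 0.11 (Ptgs1) and 0.08 (Ptger2) for the response difference 4xLPS over 1xLPS. With no filter on low counts, turned log2 values were -0.02 (Ptger2) for 4xLPS over PBS with LPS, -0.04 (Lta4h) for 4xLPS over 1xLPS with LPS and -0.03 (Ltc4s) for the response difference 4xLPS over 1xLPS. With a filter of 5 CPM, turned log2 values were -0.03 (Gpx4) and -0.01 (Anxa1) for LPS over NO in the PBS arm. With only the compared groups fitted, turned log2 values were -0.03 (Anxa1) for LPS over NO in the 4xLPS arm and -0.01 (Ptger2) for the response difference 4xLPS over PBS. With the replicate block, turned log2 values were -0.01 (Gpx4) for LPS over NO in the PBS arm, 0.10 (Alox5) for 4xLPS over PBS with LPS, -0.01 (Ltc4s) for 4xLPS over 1xLPS without LPS and -0.01 (Alox5ap) for the response difference 1xLPS over PBS. Without both libraries that stand apart, turned log2 values were -0.03 (Anxa1) for LPS over NO in the 4xLPS arm, -0.39 (Ptgs1) and -0.40 (Alox5ap) for 1xLPS over PBS with LPS, -0.03 (Ptger2) for 4xLPS over PBS with LPS, 0.01 (Alox5ap), -0.11 (Ltc4s) and 0.03 (Ptger4) for 4xLPS over 1xLPS with LPS, -0.33 (Alox5), -0.07 (Alox5ap), -0.09 (Ptger2) and 0.06 (Ptger4) for 1xLPS over PBS without LPS, 0.11 (Alox5ap), -0.15 (Ltc4s) and 0.07 (Ptger2) for 4xLPS over 1xLPS without LPS, -0.33 (Alox5ap) for the response difference 1xLPS over PBS, -0.02 (Ptger2) for the response difference 4xLPS over PBS and 0.29 (Ptgs1) for the response difference 4xLPS over 1xLPS.

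Leaving out 1 library at a time, values that turned in sign ran -0.03 to 0.16 (Ptger2), -0.12 to 0.04 (Abcc4), -0.13 to 0.09 (Mgst1), -0.29 to 0.38 (Cysltr1), -0.04 to 0.11 (Anxa1) and -0.17 to 0.14 (Gpx4) for LPS over NO in the PBS arm. They ran -0.38 to 0.33 (Ptgs1), -0.69 to 0.32 (Ltc4s), -0.80 to 0.63 (Alox5), -0.24 to 0.04 (Lta4h) and -0.39 to 0.29 (Alox5ap) for 1xLPS over PBS with LPS. They ran -0.01 to 0.23 (Ptgs1), -0.05 to 0.17 (Pla2g4a), -0.61 to 0.43 (Ltc4s), -0.13 to 0.09 (Ptger2), -0.34 to 1.06 (Alox5) and -0.13 to 0.03 (Lta4h) for 4xLPS over PBS with LPS. They ran -0.44 to 0.23 (Alox5ap), -0.11 to 0.24 (Ptger2), -0.98 to 0.45 (Alox5), -0.16 to 0.83 (Ltc4s) and -0.55 to 0.14 (Ptgs1) for the response difference 1xLPS over PBS. They ran -0.11 to 0.12 (Ptger2), -1.12 to 0.28 (Alox5) and -0.15 to 0.90 (Ltc4s) for the response difference 4xLPS over PBS. They ran -0.10 to 0.13 (Anxa1) and -0.09 to 0.12 (Ptger2) for LPS over NO in the 4xLPS arm. They ran -0.07 to 0.15 (Lta4h), -0.20 to 0.48 (Ptgs1), -0.63 to 0.06 (Ptgs2), -0.64 to 0.01 (Alox5ap), -0.11 to 0.22 (Ltc4s) and -0.29 to 0.03 (Ptger4) for 4xLPS over 1xLPS with LPS. They ran -0.69 to 0.49 (Gpx4), -0.02 to 0.28 (Anxa1), -0.18 to 0.06 (Gnas), -0.06 to 0.26 (Ptger2) and -0.53 to 0.22 (Ltc4s) for LPS over NO in the 1xLPS arm. They ran -0.01 to 0.35 (Ptger4), -0.71 to 0.10 (Alox5), -0.25 to 0.13 (Ptger2), -0.35 to 0.31 (Ptgs1), -0.61 to 0.02 (Alox5ap), -0.46 to 0.29 (Ltc4s) and -0.03 to 0.25 (Lta4h) for the response difference 4xLPS over 1xLPS. They ran -0.36 to 0.40 (Alox5), -0.09 to 0.18 (Alox5ap), -0.18 to 0.04 (Ptger4) and -0.11 to 0.25 (Ptger2) for 1xLPS over PBS without LPS. They ran -0.09 to 0.17 (Alox5ap), -0.10 to 0.07 (Ptger2) and -0.02 to 0.14 (Lta4h) for 4xLPS over PBS without LPS. They ran -0.15 to 0.14 (Alox5ap), -0.20 to 0.56 (Ltc4s), -0.21 to 0.02 (Lta4h) and -0.28 to 0.09 (Ptger2) for 4xLPS over 1xLPS without LPS.

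Divided by the longest transcript in place of all exons, levels in CPM per kilobase were 2.31 (PBS_LPS), 2.54 (4xLPS_LPS), 5.99 (PBS_NO), 6.86 (1xLPS_NO) and 7.57 (4xLPS_NO) for Ptgs1. They were 6.73 (PBS_LPS), 5.28 (1xLPS_LPS), 7.19 (4xLPS_LPS), 3.04 (PBS_NO), 1.93 (1xLPS_NO) and 3.45 (4xLPS_NO) for Pla2g4a. They were 0.794 (4xLPS_NO) for Alox5. They were 115 (PBS_LPS), 90.1 (4xLPS_LPS) and 172 (PBS_NO) for Alox5ap. They were 4.34 (1xLPS_LPS), 4.69 (4xLPS_LPS), 7.62 (PBS_NO) and 5.52 (4xLPS_NO) for Ltc4s. They were 14.9 (PBS_LPS), 14.2 (1xLPS_LPS), 14.3 (4xLPS_LPS), 18.9 (PBS_NO), 21.4 (1xLPS_NO) and 19.7 (4xLPS_NO) for Lta4h. They were 7.73 (PBS_LPS), 8.5 (1xLPS_LPS), 7.76 (4xLPS_LPS), 7.47 (PBS_NO), 7.89 (1xLPS_NO) and 7.33 (4xLPS_NO) for Ptger2. They were 3.45 (PBS_LPS), 5.29 (1xLPS_LPS), 4.91 (4xLPS_LPS), 7.7 (PBS_NO), 7.3 (1xLPS_NO) and 6 (4xLPS_NO) for Ptger4. The Ptgs2 share was then 92.7% in 4xLPS_LPS and 43.6% in PBS_NO.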
